A study of Mus musculus with 48 samples.

Results

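Chromosome 11 regions were defined as all ATAC-seq peaks on mouse chromosome 11 in 48 deposited peak lists, joined into one region wherever 1 bp or more was shared. This gave 16843 regions out of 258607 in the whole series (6.51%), built from 170144 peaks and spanning chr11:3000413-121843724 (mm9). ATAC-seq uses a transposase to cut and tag open DNA, so a peak marks accessible chromatin. The chromosome was chosen by measured values, since earlier results of these data had more regions higher in monocytes and fewer higher in progenitors on it than elsewhere. The contrast between stages is therefore described below without a test of the chromosome or its parts, and its values support nothing beyond that description. Tests of single regions between stages served only to call the regions that are counted. All other tests were run on differences among clones or libraries and on monocyte lists that had not entered the calls. The progenitor lists set beside those monocyte lists had entered them.

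The libraries came from 24 mouse ER-Hoxb8 clones, each measured 1 time as progenitors, labelled GMP cells (granulocyte-macrophage progenitors), and 1 time as monocytic cells. Both stages derive from mouse bone marrow, and the label on growth gives RPMI medium with serum, antibiotics and stem cell factor for all of them. Neither the strain nor the way the monocytic cells were obtained is given in the sources used here. The clone number pairs the libraries, and with 1 library per clone and stage, p-values reflect biological and technical variation among clones together.

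ER-Hoxb8 cells are myeloid progenitors held immature by an oestrogen-dependent form of Hoxb8, and withdrawing the hormone lets them mature. Mouse chromosome 11 is rich in genes and carries several families of myeloid interest: the beta-chemokine cluster with Ccl2 to Ccl5, which recruit monocytes and other leukocytes, Mpo and Epx, which encode granule peroxidases, Csf3, Stat3 and the Stat5 pair, which serve cytokine signalling, Csf2 and Il3, which encode myeloid growth factors, and the Hoxb cluster. All 59 genes of a myeloid and immune list drawn up for this chromosome are assigned to it in RefSeq (GRCm38.p6), which places 1609 of 21631 protein-coding genes there (7.44%, the third largest number among 20 chromosomes). The peak coordinates are in mm9 and no gene annotation of that build was used here, so regions are given by position, without gene names, and the labelled cell types were not checked against marker genes.

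Progenitor lists held 11114 to 136322 peaks (median 82430) and monocyte lists 231 to 38786 (median 21099). Relative depth, read from the spacing of the first deposited score, averaged 1.88 ± 0.855 in progenitors (SD, n = 24) and 0.669 ± 0.167 in monocytes (SD, n = 23, no step could be read from the list of 231 peaks). To bring lists to one length, each was cut to the 10000 peaks that its first score ranked highest, which left 24 progenitor and 18 monocyte lists. The cut did not fall at a like signal. In steps of that score, read as tags, the lowest peak kept held 234 ± 131 in progenitors and 39.2 ± 24.1 in monocytes (SD). In the 5 monocyte lists used from clones 15 to 25 it held 13.2 ± 4.03 (SD), and 707 to 2219 peaks of a list were tied at that value. Presence below means a peak among those 10000.

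Most chromosome 11 regions were rare. Of the 16843 regions, 6224 (37.0%) were held by 1 list only, against 37.9% elsewhere, and 7700 were held by 5 or more. Progenitor lists alone held 10049 regions, monocyte lists alone held 2985, and lists of both stages held 3809. Full agreement was limited by the shortest list: 749 regions were in all 24 progenitor lists, 4 in all 24 monocyte lists, and the same number, 4, in all 48. A total of 598 regions were in at least 20 progenitor lists and no monocyte list, whereas 0 were in at least 10 monocyte lists and no progenitor list. These counts follow the lists as deposited, in which progenitor lists were the longer ones. The counts by stage were not compared with other chromosomes, so they do not show anything particular to chromosome 11.

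For the calls, peaks of the 42 cut lists were merged anew, which gave 35485 regions over all chromosomes. These regions are not a subset of the 16843, since their bounds can differ. On chromosome 11, 1154 of them were held by at least 5 of the 42 cut lists. They entered the fit across all chromosomes (13783 regions, two-sided Fisher's exact test with Benjamini-Hochberg adjustment at 0.05). On chromosome 11, 164 regions (14.2%) were called higher in monocytes and 112 (9.71%) higher in progenitors, beside a background of 11.4% and 13.3% over all tested regions. Measured against the background rates, the chromosome had an excess of 32.2 regions of the first kind and of -41.2 of the second. The chromosome ranked second of 20, after X, for the percentage higher in monocytes, and 18th for the percentage higher in progenitors. At the threshold, the regions just inside (2 regions, adjusted p = 0.0495) had a peak in 17 of 18 monocyte lists and in 14 of the 24 from progenitors. Just outside it (adjusted p = 0.0516) lay 5 regions held by 7 monocyte lists and 1 progenitor list, and 2 regions held by 11 and 23.

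The counts differed along the chromosome, and the direction turned near 50 Mb, a boundary chosen after the values were seen. Below 50 Mb, 21 of 239 tested regions (8.79%) were higher in monocytes and 44 (18.4%) in progenitors. At or beyond 50 Mb, 143 of 915 (15.6%) were higher in monocytes and 68 (7.43%) in progenitors. Relative to the background, the excess of monocyte-higher and progenitor-higher regions was -6.29 and 12.3 regions in the first stretch and 38.5 and -53.5 in the second. In 5-Mb windows, monocyte-higher regions outnumbered progenitor-higher ones in 1 of 10 windows below 50 Mb and in 14 of 15 beyond it.

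**Figure D1:**
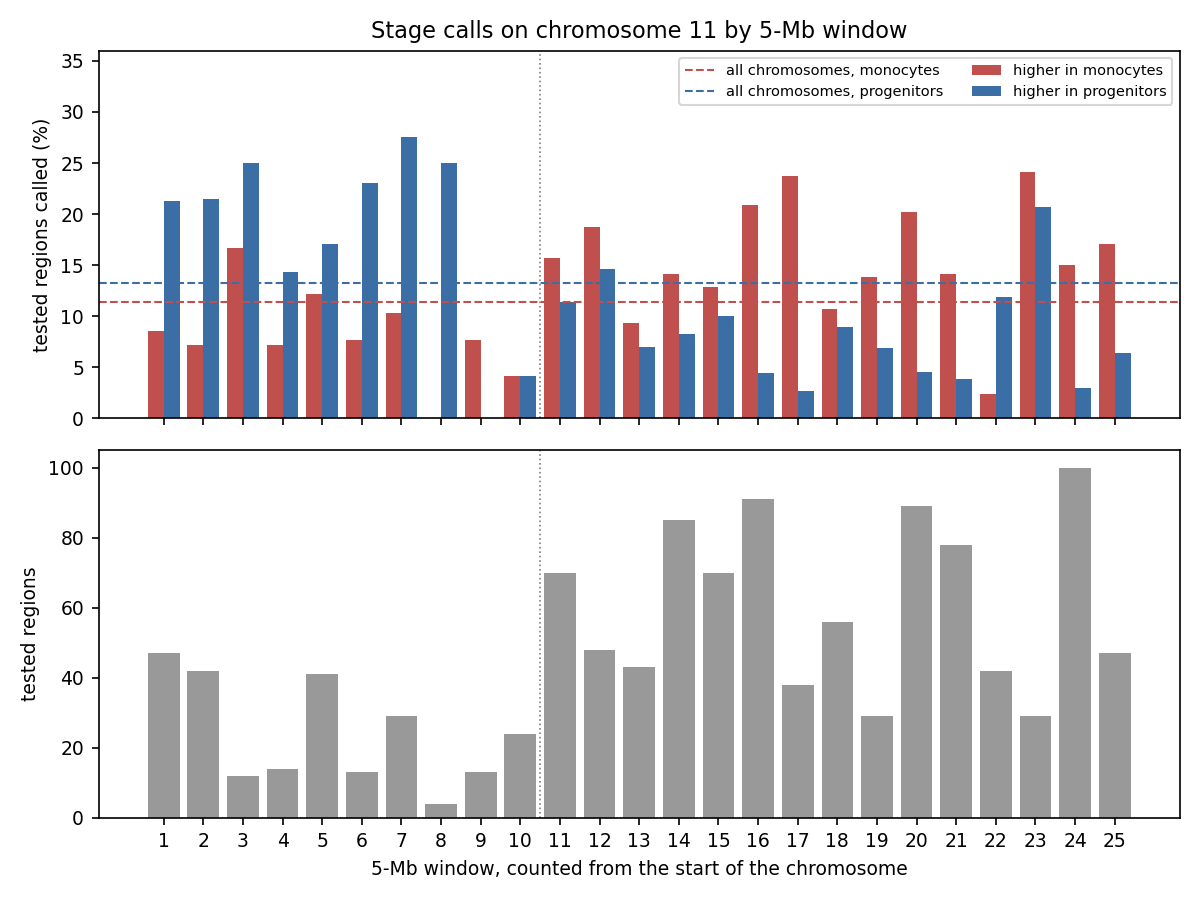
The upper panel plots the percentage of tested chromosome 11 regions called higher in monocytes (red) or progenitors (blue) in each 5-Mb window, with dashed lines at the values for all chromosomes (11.4% and 13.3%), and the lower panel plots the number of tested regions. The dotted line marks 50 Mb: red bars exceed blue bars in 14 of 15 windows to its right and in 1 of 10 to its left.

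Windows differed in the monocyte excess, and the leading ones are named here. They were picked by these same counts, and an excess in regions can be larger where more are tested. A concentration of the excess in these windows was therefore not shown. The window at 75 to 80 Mb held 19 monocyte-higher and 4 progenitor-higher regions among 91 tested. The window at 95 to 100 Mb held 18 and 4 of 89, and the window at 80 to 85 Mb held 9 and 1 of 38. These were the 3 windows with the most monocyte-higher regions above the background, by 8.61, 7.84 and 4.66 regions. The next were 110 to 115 Mb, with 7 and 6 of 29, and 115 to 120 Mb, with 15 and 3 of 100. The window at 110 to 115 Mb thus exceeded the background in both directions. These counts moved with the length of the lists. At 75 to 80 Mb they were 6 monocyte-higher and 5 progenitor-higher with lists of 5000 peaks and 31 and 10 with lists of 20000. At 95 to 100 Mb they were 14 and 4 with lists of 5000 and 17 and 22 with lists of 20000, so that the order turned. At 80 to 85 Mb they were 3 and 1, and 17 and 3. Of the 50 counts of the 25 windows, 19 stayed within 1.5 times their value with lists of 5000, 10 with lists of 20000 and 21 by the second score.

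The lack of progenitor-higher regions had a partly different order. Relative to the background it was largest at 115 to 120 Mb (-10.3 regions), followed by 75 to 80 Mb (-8.08), 95 to 100 Mb (-7.82), 100 to 105 Mb (-7.36, with 11 monocyte-higher and 3 progenitor-higher regions of 78) and 65 to 70 Mb (-4.29). This order also depended on the setting: at 115 to 120 Mb, 3 progenitor-higher regions became 21 with lists of 20000 and 16 by the second score, beside 25 monocyte-higher regions in each, and with lists of 5000 the window held 4 of each kind. The window at 105 to 110 Mb broke the run, with 1 monocyte-higher and 5 progenitor-higher regions of 42. The opposite end of the chromosome held the windows with the most progenitor-higher regions above the background: 30 to 35 Mb (8 of 29), 0 to 5 Mb (10 of 47) and 5 to 10 Mb (9 of 42). Among all 255 windows of the genome with at least 20 tested regions, monocyte-higher regions outnumbered progenitor-higher ones in 105 (41.2%), and among the 20 such windows of chromosome 11 in 14.

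At a finer scale, 15 of 99 stretches of 1 Mb with tested regions held 4 or more monocyte-higher regions, and 0 of the 15 lay below 50 Mb. They held 78 of the 164 monocyte-higher regions (47.6%) and 30.3% of all tested regions of the chromosome, with 20 progenitor-higher regions. The 15 stretches were picked by these same counts, so their larger share of monocyte-higher regions follows from the choice and does not show clustering. Only 239 of the 1154 tested regions lay below 50 Mb, and a minimum of 4 is reached less easily where fewer are tested. That no such stretch lay below 50 Mb therefore does not by itself show a lower monocyte-higher percentage there. The fullest were 77 to 78 Mb (8 monocyte-higher and 1 progenitor-higher of 27 tested) and 120 to 121 Mb (8 and 0 of 37). Next came 97 to 98 Mb (7 and 2 of 26) and 98 to 99 Mb (6 and 0 of 29). A further 5 stretches held 5 monocyte-higher regions each, with no progenitor-higher region at 82 to 83 Mb (of 10 tested) and 101 to 102 Mb (of 16), 1 at 115 to 116 Mb (of 32), 2 at 68 to 69 Mb (of 22) and 5 at 69 to 70 Mb (of 52). In contrast, 3 to 4 Mb held 8 progenitor-higher and 3 monocyte-higher regions of 29, and 6 to 7 Mb held 5 and 0 of 19.

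The same 50-Mb boundary was applied to the other chromosomes to place these values. Over 20 chromosomes, the percentage higher in monocytes beyond 50 Mb minus that below was largest on chromosome 11 (6.84 points), followed by chromosome 3 (4.70 points), and was lowest on X (-15.1 points). For the percentage higher in progenitors, the difference was most negative on chromosome 11 (-10.98 points), followed by chromosome 12 (-6.19 points). The boundary was read off chromosome 11, which favours that chromosome in this order.

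**Figure D2:**
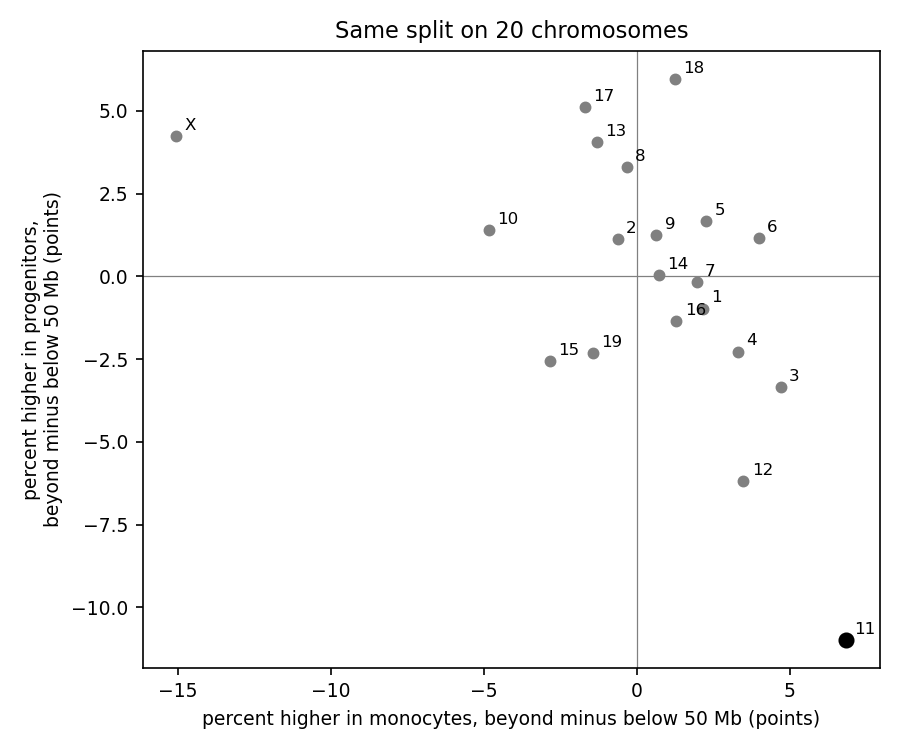
Each point is 1 of 20 chromosomes, plotted by the percentage of tested regions higher in monocytes (x axis, percentage points) and higher in progenitors (y axis, percentage points) at or beyond 50 Mb minus the percentage below. Chromosome 11 (black) lies at 6.84 and -10.98 points, farthest right and lowest.

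Chromosome 11 had the most tested regions per Mb of the 20 chromosomes (9.47), so windows were also compared at like density. Among 5-Mb windows with 47 to 120 tested regions, the 11 windows of chromosome 11 had 15.6% monocyte-higher and 7.81% progenitor-higher regions, and the 74 windows of other chromosomes had 10.6% and 12.4%. Among windows with 29 to 46 tested regions, the 8 windows of chromosome 11 (12.3% and 14.0%) lay close to the 78 of other chromosomes (12.3% and 14.1%). Density and position were mixed here, since 10 of the 11 densest windows but 5 of the 8 middle ones lay at or beyond 50 Mb.

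The monocyte-higher regions with the largest difference between the stages in the share of lists were taken first. The first 3 were chr11:22872819-22873075 and chr11:77500793-77501213 (16 monocyte lists and 0 progenitor lists each) and chr11:50024106-50024403 (16 and 1). The other 5 of the leading 8 were chr11:97887889-97888517 (18 monocyte and 4 progenitor lists), chr11:120209560-120210128 (17 and 3), chr11:3068682-3068959 (14 and 0), chr11:69748953-69749427 (17 and 4) and chr11:75268039-75268341 (17 and 4). In the lists as deposited, these 5 regions were held by 18 to 22 monocyte lists and by 14 to 24 progenitor lists. They were thus mostly present in both stages and differed in where they ranked. In the leading windows, chr11:98814149-98814395 was held by 14 monocyte lists and 1 progenitor list, chr11:82876756-82877016 by 14 and 0, chr11:83253778-83254073 by 16 and 7, chr11:115675881-115676231 by 18 and 6, and chr11:119129164-119129418 by 17 and 5.

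The same held for the whole set. Of the 164 monocyte-higher regions, 69 were in no progenitor list of 10000, but 0 were absent from all progenitor lists as deposited. The median monocyte-higher region was in 23 of 24 progenitor and 16 of 24 monocyte lists as deposited. Of the 112 progenitor-higher regions, 39 were in no monocyte list of 10000 and 9 in no monocyte list as deposited. The median one was in all 24 progenitor and 13 monocyte lists.

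The progenitor-higher regions with the largest differences were of 2 kinds. At chr11:6344058-6344223 (23 progenitor lists and 0 monocyte lists), chr11:74643404-74643562 (24 progenitor lists, 1 monocyte list), chr11:6315348-6315472 (22 and 0), chr11:58977206-58977355 (21 and 0) and chr11:69651488-69651670 (20 and 1), another region within 500 bp was held by 16 to 18 monocyte lists. At chr11:50229443-50229571 (21 and 0), chr11:51378673-51378809 (20 and 0) and chr11:3473251-3473440 (19 and 0), no other region within 500 bp was held in any cut list. Over all 112 progenitor-higher regions, 39 had such a neighbour in at least 50% of monocyte lists, against 13 of the 164 monocyte-higher ones and 92 of the 878 called in neither direction. These counts were not compared with other chromosomes, so they do not show anything particular to chromosome 11. Merging peaks across gaps of up to 500 bp left 144 monocyte-higher and 70 progenitor-higher regions on the chromosome (14.0% and 6.78% of those tested, against 11.6% and 9.61% over all chromosomes).

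Single libraries differed widely in how many called regions they held. The 164 monocyte-higher regions were held at 0.610% (clone 16), 10.1% (median) and 33.5% (clone 11) in progenitor lists, and at 19.5% (clone 20), 64.9% (median) and 88.4% (clone 8) in monocyte lists. The 112 progenitor-higher regions were held at 47.3% (clone 11), 79.5% (median) and 87.5% (clone 4) in progenitor lists, and at 2.68% (clone 25), 29.0% (median) and 45.5% (clone 7) in monocyte lists. The groups overlapped for the first set and did not overlap for the second. Both sets were called from presence in these same lists, so how far the stages lie apart is partly fixed by that choice. The progenitor list of clone 11, with 11114 peaks, was the one closest to monocyte lists on both. Among monocytes, the 13 lists of clones 1 to 13 held 72.04% ± 10.7 of the monocyte-higher regions (SD, n = 13) and the 5 of later clones (16, 18, 20, 21 and 25) 42.2% ± 21.1 (SD, n = 5). The later lists were also low on the progenitor-higher regions, at 4.29% ± 1.16 against 33.9% ± 9.66 (SD).

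The share of the 10000 highest peaks on chromosome 11 was 6.23%, 8.20% and 9.16% in progenitors (lowest, median and highest, n = 24) and 7.16%, 8.79% and 9.27% in monocytes (n = 18). The stages overlapped: the means were 8.12% ± 0.667 and 8.58% ± 0.610 (SD), and the monocyte share was the higher one in 15 of 18 clones. Below 50 Mb the shares were 1.56%, 1.81% and 2.29% in progenitors and 1.36%, 1.59% and 1.65% in monocytes, so that the monocytes reached from below the progenitor range to its lower part. At or beyond 50 Mb they were 4.37%, 6.27% and 7.23% in progenitors and 5.69%, 7.20% and 7.91% in monocytes.

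Where in the ranking the chromosome 11 peaks lay differed between stages. Over ranks 1 to 1000, chromosome 11 took 7.08% ± 1.65 of progenitor peaks and 8.71% ± 1.06 of monocyte peaks (SD, n = 23 clones), and the monocyte share was the higher one in 19 clones. Over ranks 2001 to 5000 the means were nearly equal (8.57% ± 0.894 and 8.58% ± 0.701, SD, n = 21), with the monocyte share higher in 9 clones. Over ranks 10001 to 20000 the order was turned, at 8.26% ± 0.194 in progenitors and 7.32% ± 0.540 in monocytes (SD, n = 11), and the monocyte share was the lower one in 11 of 11 clones.

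The turn lay in the distal stretch. At or beyond 50 Mb, chromosome 11 took 5.08% ± 1.66 of progenitor and 7.35% ± 1.20 of monocyte peaks over ranks 1 to 1000 (SD, n = 23), and 6.54% ± 0.162 and 5.89% ± 0.475 over ranks 10001 to 20000 (SD, n = 11). Below 50 Mb the monocyte mean was the lower one in each of the 5 bands. There the monocyte share was lower in 21 of 23 clones over ranks 1 to 1000 and in 11 of 11 over ranks 10001 to 20000.

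**Figure D3:**
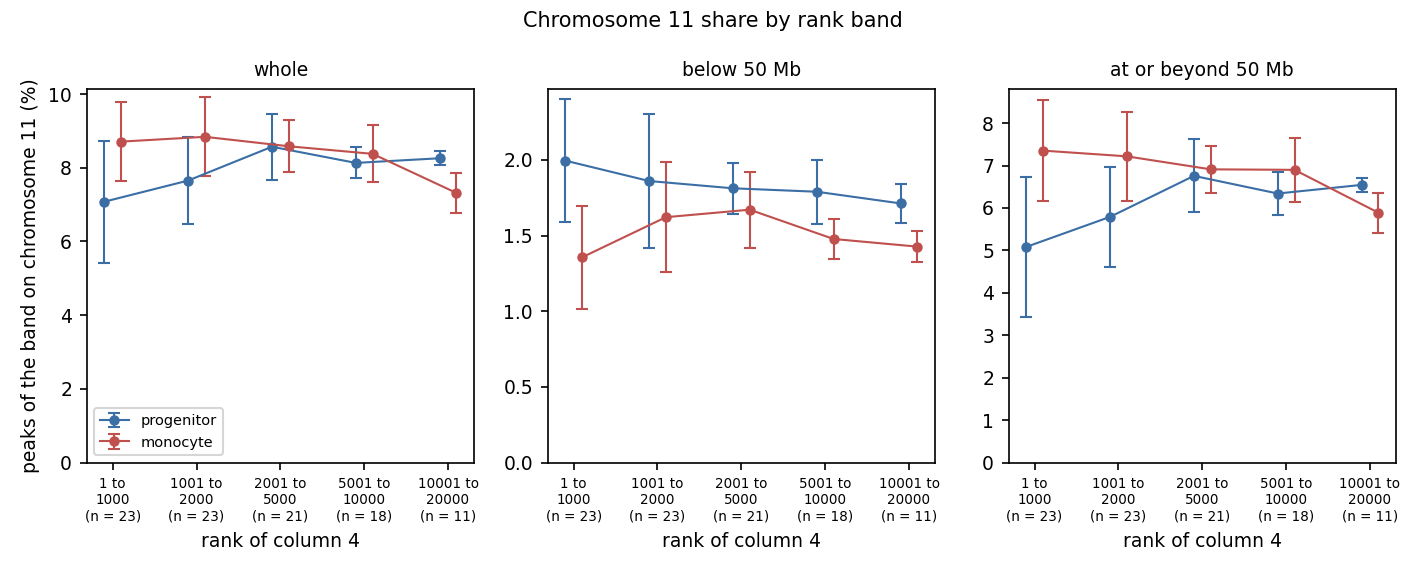
The percentage of peaks lying on chromosome 11 (y axis) is plotted for 5 bands of the ranking by the first score (x axis), for clones with both lists long enough (n given per band); points are means and bars SD, blue for progenitors and red for monocytes. Red lies above blue at ranks 1 to 2000 for the whole chromosome and at or beyond 50 Mb, and below blue in each band below 50 Mb and over ranks 10001 to 20000.

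With 20000 peaks per list (23 progenitor and 12 monocyte lists), the excess of monocyte-higher regions was not seen: 12.9% of tested chromosome 11 regions were higher in monocytes against 14.2% over all chromosomes, and 14.3% were higher in progenitors against 15.1%. Ranking by the second score gave 15.2% against 14.6% and 14.1% against 16.0%. The contrast along the chromosome kept its direction in both. With 20000 peaks, the percentages higher in monocytes and progenitors were 10.9% and 24.04% below 50 Mb and 13.5% and 11.7% beyond it. By the second score they were 12.0% and 24.4% below and 16.1% and 11.2% beyond. The fit blocked by clone (exact sign test) called 88 regions higher in monocytes (7.63%, against 4.85% over all chromosomes) and 51 higher in progenitors (4.42%, against 6.36%). A fit on clones 1 to 13 alone called 110 (10.1%, against 7.76%) and 46 (4.21%, against 6.15%).

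Peak ranks that do not depend on a cut were taken from the 3257 regions held by all 42 lists as deposited, 275 of them on chromosome 11. Each region's score was turned into a percentile within its library, and the median over chromosome 11 regions was 30.3, 44.8 and 54.6 in progenitors (lowest, median and highest, n = 24) and 45.2, 51.5 and 55.9 in monocytes (n = 18). The means were 44.8 ± 5.51 and 51.2 ± 2.66 (SD), and the monocyte value was the higher one in 16 of 18 clones. The difference of 6.47 percentile points was the second largest toward monocytes among 20 chromosomes, after chromosome 17 (8.71). In the opposite direction, chromosomes 18 (-7.78) and 1 (-7.06) differed by more. By the second score its sign was the opposite (51.2 in progenitors and 48.8 in monocytes).

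Both stretches showed their own direction in these ranks. Below 50 Mb (56 regions), the median percentile was 48.8 ± 6.31 in progenitors and 45.7 ± 4.65 in monocytes (SD), and the monocyte value was the lower one in 13 of 18 clones. At or beyond 50 Mb (219 regions), it was 43.7 ± 6.59 in progenitors and 52.9 ± 2.94 in monocytes (SD), and the monocyte value was the higher one in 18 of 18 clones. By the second score the means beyond 50 Mb were 48.8 in progenitors and 47.3 in monocytes, so that the direction there also turned with the score used.

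**Figure D4:**
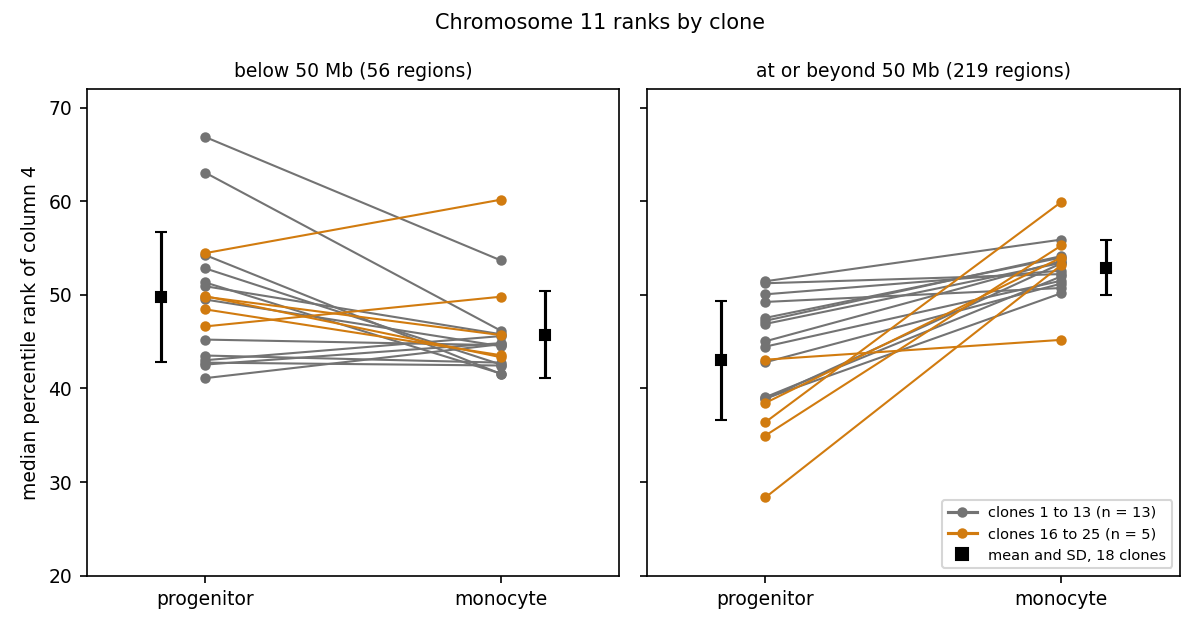
Lines join the progenitor and monocyte libraries of each of 18 clones; the y axis is the median percentile rank, by the first score, of chromosome 11 regions held by all 42 lists, and squares with bars are means and SD. At or beyond 50 Mb all 18 lines rise, and they rise most in 4 of the 5 later clones (orange); below 50 Mb 13 of 18 fall.

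Windows varied in this rank difference. The largest toward monocytes among windows with at least 5 common regions was at 95 to 100 Mb (19 regions), where the median percentile was 34.9 ± 8.78 in progenitors and 53.2 ± 10.4 in monocytes (SD) and was higher in monocytes in 18 of 18 clones. Next were 85 to 90 Mb (43.6 ± 11.4 and 58.9 ± 5.82, SD) and 65 to 70 Mb (49.2 ± 10.3 and 63.5 ± 8.81, SD), each with 16 of 18 clones in that direction. The window at 75 to 80 Mb, with the most monocyte-higher regions, differed by only 3.33 points (30.7 ± 9.39 and 34.1 ± 7.91, SD). At 20 to 25 Mb (12 regions) the order was the opposite, with 72.7 ± 6.01 in progenitors and 47.1 ± 8.74 in monocytes (SD), and the monocyte value was lower in 18 of 18 clones.

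Among the 275 common regions, 176 had a higher mean percentile in monocytes (64.0%, against 51.2% over all 3257). A total of 100 were over 10 points higher in monocytes (36.4%, against 26.2%) and 51 were over 10 points lower (18.5%, against 25.1%). For 0 of the 275 did all monocyte libraries lie above, or all lie below, all progenitor libraries, beside a background of 0.0921% in each direction. Below 50 Mb, 14 of 56 were over 10 points higher and 25 over 10 points lower, and at or beyond 50 Mb 86 of 219 were over 10 points higher and 26 over 10 points lower.

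The region with the largest rank difference, chr11:23397921-23398343, was lower in monocytes. Its percentile was 50.1, 96.7 and 99.0 in progenitors (lowest, median and highest) and 8.63, 24.8 and 68.6 in monocytes, so it was near the top of most progenitor lists, and it was lower in the monocytes of 18 of 18 clones. The neighbouring part of the chromosome also held chr11:20531747-20532484, at 65.5, 86.2 and 95.5 in progenitors and 3.95, 31.3 and 80.2 in monocytes. The remaining 3 of the 5 largest of this direction were chr11:5344743-5345193 (medians 78.5 and 25.5), chr11:54911181-54911584 (98.6 and 51.3) and chr11:3232159-3232531 (52.7 and 16.9). Of the 5, 4 therefore lay below 50 Mb, where 56 of the 275 common regions lay.

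In the other direction all 5 regions with the largest difference lay beyond 50 Mb. So did 219 of the 275 common regions, and the count of 5 is near that share. The region chr11:120410896-120411163 was at 3.62, 20.6 and 94.3 in progenitors (lowest, median and highest) and 34.9, 77.9 and 95.4 in monocytes. At chr11:70051186-70051540 the values were 9.43, 29.4 and 75.3 in progenitors and 61.3, 77.2 and 93.0 in monocytes. Both were higher in the monocytes of 17 of 18 clones, although the ranges of the stages overlapped. The other 3 were chr11:100931180-100931435 (medians 17.3 in progenitors and 59.9 in monocytes), chr11:53164144-53164387 (5.77 and 49.0) and chr11:61080474-61080899 (8.07 and 53.6).

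The 6 monocyte lists with fewer than 10000 peaks (clones 15, 17, 19, 22, 23 and 24) had not entered the calls. Each was compared with the progenitor list of its clone, cut to the same length. The chromosome 11 share was 8.43% in monocytes and 7.77% in progenitors of clone 15, 8.37% and 9.07% in clone 17, 5.56% and 6.98% in clone 19, 11.3% and 5.63% in clone 22, 8.09% and 8.51% in clone 23, and 8.27% and 8.96% in clone 24. The monocyte share was the higher one in 2 of 6 clones, and the mean difference of 0.510 points ± 2.60 (SD) did not pass an exact sign-flip permutation test (two-sided p = 0.9375, adjusted p = 0.9375 over the whole chromosome and its 2 stretches, smallest possible p = 0.03125).

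Clone 22, with 231 peaks and 26 of them on chromosome 11 (95% Wilson interval 7.80% to 16.0%, counting error only), carried the positive mean. Without it the mean difference was -0.514 points ± 0.756 (SD, n = 5, exact permutation p = 0.1875, smallest possible p = 0.0625). At or beyond 50 Mb the monocyte share was higher in 2 of 6 clones (mean difference 0.703 points ± 2.30, SD, exact permutation p = 0.71875, adjusted p = 0.9375). Below 50 Mb it was lower in 5 of 6 (mean difference -0.194 points ± 0.326, SD, exact permutation p = 0.21875, adjusted p = 0.65625), and lower in 5 of 5 without clone 22 (-0.319 points ± 0.121, SD, exact permutation p = 0.0625, the smallest possible). In these short lists, then, the higher chromosome 11 share of monocytes was not detected.

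The same lists were set against the called regions. The monocyte list of clone 15 held 77 of the 164 monocyte-higher regions (47.0%), and those of clones 17, 23, 24, 19 and 22 held 42, 40, 27, 8 and 4. Their progenitor lists at the same length held at most 1 of the 164. Of the 112 progenitor-higher regions, the 6 monocyte lists held 0 to 12 and the progenitor lists 2 to 57. The progenitor lists had entered the calls, so their low counts of monocyte-higher regions are part of how those regions were chosen.

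The stage difference in chromosome 11 rank was larger, on average, in the 5 later clones with both lists of at least 10000 peaks. Monocyte minus progenitor was -0.184, 4.76 and 9.13 points in clones 1 to 13 (lowest, median and highest, n = 13), and was 22.9, 14.9, -0.461, 18.2 and 8.57 points in clones 16, 18, 20, 21 and 25. Of the later clones, 3 lay above the whole range of the others and clone 20 lay below it. The means were 4.51 ± 3.00 and 12.8 ± 9.06 (SD), and the earlier minus the later clones gave -8.30 points (exact permutation test over 8568 splits of the clones, two-sided p = 0.00875, adjusted p = 0.0263 over 9 comparisons). The comparison of these clone sets had been chosen because earlier results showed a break between them in the monocyte libraries.

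In these 18 clones the difference was found at or beyond 50 Mb and on the progenitor side. There the progenitor percentile averaged 45.6 ± 4.56 in clones 1 to 13 and 36.3 ± 5.37 in the later clones (SD, n = 13 and 5, exact permutation p = 0.00210, adjusted p = 0.0189), whereas the monocyte percentile averaged 52.7 ± 1.59 and 53.5 ± 5.34 (SD, exact permutation p = 0.582, adjusted p = 0.655). Below 50 Mb the difference between stages was -5.09 ± 6.85 and -1.33 ± 5.42 (SD, exact permutation p = 0.289, adjusted p = 0.372), which did not pass. With 1 later clone left out at a time, the whole-chromosome value lay between -5.78 points (without clone 16) and -11.6 points (without clone 20). The progenitor difference did not hold over all later clones. With the 6 later progenitor lists whose monocyte list was too short added, in a comparison chosen after seeing the data, the percentile at or beyond 50 Mb was 28.4, 40.3 and 55.8 (lowest, median and highest, n = 11), with a mean of 41.4 ± 8.03 (SD). The gap to clones 1 to 13 was then 4.17 points (permutation p = 0.125, adjusted p = 0.368 over 6 added comparisons), and over the whole chromosome 3.28 points (permutation p = 0.150, adjusted p = 0.368). Of the 5 later progenitor lists of paired clones, 4 (clones 18, 20, 21 and 25) carry another naming code than the lists of clones 1 to 13, and 2 of them (clones 21 and 25) have relative depths of 0.112 and 0.0775, against 1.52 to 2.04 in clones 1 to 13. Clone 16, with the largest difference, carries the same code as clones 1 to 13 and a relative depth of 1.77. Over the 5 later progenitor lists with that code (clones 15, 16, 22, 23 and 24), the percentile at or beyond 50 Mb averaged 42.2 ± 9.07 (SD), 3.39 points below clones 1 to 13 (exact permutation p = 0.306, adjusted p = 0.368).

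Whether a clone kept its chromosome 11 rank from progenitor to monocyte was asked with 6 correlations across clones, whose p-values were adjusted together to q (Benjamini-Hochberg). Over 18 clones the percentiles of the stages gave r = -0.153 (permutation p = 0.541, q = 0.560) and rho = -0.0980 (permutation p = 0.699, q = 0.780), while leaving out the 2 clones farthest from the progenitor median gave r = -0.132. Within clones 1 to 13 the sign was the opposite, with r = 0.663 (permutation p = 0.0125, q = 0.0751) and rho = 0.643 (permutation p = 0.0212, q = 0.127), while leaving out 2 clones in the same way gave r = 0.483. Neither passed after adjustment, and the 5 later clones are too few for a value of their own. Within clones 1 to 13, the percentile also ran against the log10 number of peaks of the library in both stages (r = -0.510 in progenitors and -0.434 in monocytes, n = 13, as a description). Between the stages, the log10 numbers of peaks themselves gave r = 0.0594 in these clones. The part of peak number in the correlation between stages was not tested.

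By stretch, the correlation over 18 clones was 0.414 below 50 Mb (permutation p = 0.0881, q = 0.176; rho = 0.193, permutation p = 0.442, q = 0.780) and -0.147 beyond it (permutation p = 0.560, q = 0.560; rho = -0.0712, permutation p = 0.780, q = 0.780). Without the 2 farthest clones r was 0.237 and -0.0862. Within clones 1 to 13, r was 0.557 below 50 Mb (permutation p = 0.0545, q = 0.163; rho = 0.0934, permutation p = 0.765, q = 0.780) and 0.415 beyond it (permutation p = 0.158, q = 0.237; rho = 0.418, permutation p = 0.159, q = 0.477). Without the 2 farthest clones these were -0.438 and 0.379, so the value below 50 Mb rested on those clones. They were clones 1 and 10, whose progenitor percentiles below 50 Mb were 63.1 and 66.9 against 41.1 to 54.3 in the other 11.

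None of the 19 windows with at least 5 common regions passed for clonal pairing (permutation test with Benjamini-Hochberg adjustment, smallest adjusted p = 0.534 for r and 0.663 for rho). Unadjusted, 0 windows passed for r and 1 for rho, the window at 100 to 105 Mb, where rho was -0.503 (permutation p = 0.0349) and the sign was opposite to pairing. The largest deviations shared by both stages of a clone were picked over all these windows and clones, so they do not show clonal pairing. Clone 10 stood out at 0 to 5 Mb (6 common regions), where its median percentile was 20.9 points above the median library in progenitors and 27.7 points above it in monocytes. Clone 16 lay below in both stages at 95 to 100 Mb, by 16.5 points in progenitors and 21.3 points in monocytes.

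Single regions were tested for pairing by presence in the cut lists of 18 clones. On chromosome 11, 280 regions were held and lacked by at least 3 clones in each stage, and 0 passed (Fisher's exact test with Benjamini-Hochberg adjustment over 3086 regions, smallest adjusted p = 0.317), beside a background of 0% over all chromosomes. At an unadjusted p under 0.05 there were 13 (4.64%, background 5.41%), of which 12 had progenitor and monocyte present together more often than their frequencies give. Over all chromosomes the same held for 137 of 167, so this lean was not particular to chromosome 11. The smallest p was at chr11:87606971-87607202, held by both stages in 9 clones, by neither in 8 and by the progenitor alone in 1 (Fisher's exact p = 0.000411, adjusted p = 0.317). The next were chr11:96685435-96685638 (both stages in 13 clones, neither in 4) and chr11:110198882-110199149 (both in 9, neither in 7), each with an adjusted p of 0.540 by Fisher's exact test.

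Chromosome 11 rank also moved with the length of the deposited list. Among 8 relations computed, the strongest was that of the 18 monocyte libraries, whose percentile ran against the log10 number of peaks with r = -0.730 (permutation p = 0.00054, q = 0.00432 after Benjamini-Hochberg adjustment). The rank correlation was rho = -0.688 (permutation p = 0.00213, q = 0.00852), and leaving out the 2 libraries farthest from the median peak number gave r = -0.657. Among the monocytes of clones 1 to 13 alone the value was r = -0.434 (permutation p = 0.119, q = 0.265), with rho = -0.319 (permutation p = 0.288, q = 0.329) and r = -0.206 on leaving out 2 libraries. The relation thus did not pass within these clones.

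For the 18 progenitor libraries that share the most frequent naming code, Pearson's value was r = -0.501 (permutation p = 0.0568, q = 0.227) and Spearman's was rho = -0.703 (permutation p = 0.00139, q = 0.00852), and r was -0.641 on leaving out 2 libraries. For all 24 progenitor libraries they were r = -0.269 (permutation p = 0.198, q = 0.265) and rho = -0.415 (permutation p = 0.0455, q = 0.121), with r = -0.262 on leaving out 2. The sign was negative in all 4 sets, and none of the 4 relations to relative depth passed after adjustment (smallest q = 0.265 for r and 0.152 for rho). Monocyte lists were also the shorter ones, and the part of list length in the stage difference was not tested.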

How the data were processed

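The deposited files are 48 peak lists in mm9 coordinates, 1 per library. Per the labels' protocols, ATAC-seq followed a published method. BWA is named, without a version, in the submitters' processing notes; no source used here gives the peak caller, the read filters or any transposase shift. Each peak has a pair of values made by the authors: a first deposited column, read as a signal that is never negative, and a second deposited score of unknown meaning. Both were used for ranks within a list. The first column falls on a ladder whose step was read as 1 tag, and its spacing gives relative depth if the authors used one total for all lists. Of values up to 40 steps, 90.3% to 100% per list came within 0.1 of a step. Read totals are unknown.

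Regions were merged at 1 bp overlap, separately for the 48 lists as deposited and for the cut lists. Lists were cut to 10000 peaks by signal, ties in a seeded random order. Fisher's exact test with Benjamini-Hochberg adjustment at 0.05 was fitted over regions of all chromosomes held by at least 5 of 42 libraries. Percentile ranks used regions held by all 42 libraries on 20 chromosomes. Correlations used 100000 permutations. A number marks one clone in both stages, per the series design, so clone was the block in blocked fits. The members and lists were chosen with earlier results of these data known; the 50-Mb boundary and every value by stretch, the 1-Mb stretches, the bands of ranks, the comparison of clone sets within each stage, its extension to all later progenitors and the alternatives on ties, on other boundaries and on clones 16, 20 and 21 were chosen after seeing the data. No 2 files were identical (0 pairs). Regions named are the 8 per direction that differ most in the percentage of libraries, the leading 2 in each of the 3 windows with the most monocyte-higher and the fewest progenitor-higher calls against the background, the 5 per direction with the largest rank difference, and the 3 with the smallest pairing p. Genes near regions, motifs and sequences were not analysed here, since a genome and annotation of mm9 were not used. Alternatives were lists of 5000 and 20000 peaks, ranks by the second score, merging across 500 bp, 1-kb bins, at least 10 libraries, windows moved by 2.5 Mb, clone sets and leaving out clones. Tools were Python 3.11.15, NumPy 2.4.6, SciPy 1.17.1, pandas 2.3.3 and matplotlib 3.10.9.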

Additional observations from a re-analysis of the deposited data

Results flagged for a closer look

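The stage difference in chromosome 11 rank differed between clones 1 to 13 and the 5 later clones, by -8.30 points over the whole chromosome (exact permutation p = 0.00875) and by -10.2 points at or beyond 50 Mb (exact permutation p = 0.00514). Over the later clones left out 1 at a time, the exact permutation p of the whole-chromosome difference was 0.00126 to 0.0387, and by the second score the difference was -6.43 points (exact permutation p = 0.0384). By that score the stage difference itself turned, from 6.47 to -2.47 points, so a larger rise in later clones cannot be read from the -6.43. The flagged difference rests on the 5 later clones with both lists, and the progenitor gap behind it did not pass over all 11 later progenitor lists (permutation p = 0.150).

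Among the 6 monocyte lists that had not entered the calls, clone 22 lay far from the others, with a chromosome 11 share 5.63 points above that of its progenitors, against -1.42 to 0.664 points in the other 5. Its list holds 231 peaks. A total of 6 groups of 4 to 10 values were looked at in this way, and chance alone singles out about 1 in 20.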

How the results depend on the processing

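Lists of 5000 peaks gave 97 monocyte-higher and 72 progenitor-higher regions on chromosome 11 and lists of 20000 gave 284 and 315, against 164 and 112. The replicate block left 88 and 51. Other settings that moved a count by over 1.5 times were ranking by the second score (206 progenitor-higher), merging across 500 bp (70 progenitor-higher) and clones 1 to 13 only (46 progenitor-higher). Chromosome 11 minus all chromosomes was 2.79 points for the percentage higher in monocytes. It turned to -1.26 with lists of 20000 and shrank to 0.650 by the second score. For the percentage higher in progenitors it went from -3.57 to -0.786 points with lists of 20000. The difference in progenitor-higher percentage between the stretches went from -10.98 to -16.3 points with lists of 5000. It was -14.0 and -9.88 with the boundary at 40 and 60 Mb, and the monocyte-higher one was 5.83 and 3.95. Windows where monocyte-higher calls outnumbered the others fell from 15 to 9 with lists of 20000 and to 8 by the second score. The share by stage turned from 0.460 to -0.137 points with lists of 20000. Rank differences turned by the second score, from 6.47 to -2.47 points and, beyond 50 Mb, from 9.22 to -1.42. Summing the first score per region moved the difference below 50 Mb from -3.02 to -12.4. The share in the 6 short lists turned to -0.514 without clone 22, and the clonal correlation to 0.663 within clones 1 to 13 (permutation p = 0.0125). The progenitor gap between clones 1 to 13 and later clones went from 6.67 to 3.28 points over all later lists and 3.71 over those with the commonest code, beyond 50 Mb from 9.35 to 4.17 and 3.39, and below it from -0.0725 to 2.18 and 4.22; the 4 values over the whole chromosome and beyond 50 Mb no longer passed (permutation p = 0.125 to 0.306). The causes were not tested.

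Under all 11 other settings of the region calls, the stretch below 50 Mb had a lower monocyte-higher and a higher progenitor-higher percentage than all chromosomes, and the stretch beyond had a lower progenitor-higher one; its monocyte-higher percentage was above all chromosomes in 10, the exception being lists of 20000. Leaving out 1 later clone gave early minus late differences of -11.6 to -5.78 points, and -14.0 to -8.29 beyond 50 Mb. Depth is unknown in reads, and the lowest peak kept held as few as 8.95 tags. Blocked by clone, the share and rank differences by stage were 0.507 and 6.82 points.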

Other observations

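Regions held by both libraries of 1 clone and by no other list of the series numbered 115, of which 9 lay on chromosome 11: 3 in clone 13, 3 in clone 20 and 1 each in clones 17, 21 and 25. Chromosome 11 holds 6.51% of all regions of the series, so 9 of 115 is near that share and does not set the chromosome apart. Clone 13 had 8 such regions in all, and its 3 on chromosome 11 were chr11:3077396-3077557, chr11:96166041-96166172 and chr11:97459678-97459811. Clone 20, with the longest monocyte list (38786 peaks), had 60 in all.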
